A study of Mus musculus with 10 samples.

Results

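The proteasome subunit genes were taken as every gene symbol made of *Psma*, *Psmb*, *Psmc*, *Psmd*, *Psme*, *Psmf* or *Psmg* and a number, with or without a closing letter, which gave 49 of the 24052 gene symbols listed. These genes were followed in RNA sequencing data from 10 mouse livers, of which 5 came from wild-type and 5 from Ndrg3 LKO animals, each liver giving 1 library. The rule used no measured value. It leaves out *Psmc3ip*, the 1 other symbol with this start, which encodes a protein of meiotic recombination.

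The proteasome is the protease of cytosol and nucleus that degrades proteins tagged with ubiquitin. Its 20S core is a barrel of stacked rings, with outer rings of alpha subunits and inner rings of beta subunits, and the beta subunits PSMB5, PSMB6 and PSMB7 carry the catalytic sites of the constitutive form. A 19S regulatory particle, built of a base with a ring of ATPases and of a lid, binds the ubiquitin tag, removes it and threads the substrate into the core. In cells of the immune system, and in other cells exposed to interferon gamma, PSMB8, PSMB9 and PSMB10 take the places of PSMB5, PSMB6 and PSMB7 in newly made cores, and this immunoproteasome is known for cutting peptides that are presented on MHC class I molecules.

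All mice were labelled as C57BL/6, the *Ndrg3* allele having been backcrossed to C57BL/6N by the methods, and had free access to normal chow. Ndrg3 LKO mice carried a deletion of exon 4 of *Ndrg3* made with Cre under the albumin promoter, which is active in hepatocytes. Deletion in other cells of the liver was not tested here. *Ndrg3* is a member of the N-myc downstream-regulated gene family. Controls were wild type by their label and wild-type littermates by the study's methods, and whether they carried the floxed allele or the Cre transgene is not given in the sources used here. The mice were 8 to 10 weeks old by the methods and 10 to 12 weeks old by a figure legend. The values were whole-number read counts per gene, and levels are given below as CPM, counts scaled to a common library size, after TMM normalization, edgeR's scaling by a trimmed mean of log ratios.

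The libraries held 20872262 to 24747870 counts in wild-type and 23474693 to 30450057 counts in Ndrg3 LKO livers. *Ndrg3* itself was at 15.9 to 21.9 CPM in wild-type and 7.07 to 9.16 CPM in Ndrg3 LKO livers, which did not overlap. For these livers the study's methods give 5 Ndrg3 LKO mice, but its figure legends give 4, and which liver was left out is not stated. Ndrg3 LKO liver 5 stood apart from the other 4 Ndrg3 LKO livers. On the first principal component of all genes tested, which held 68.7% of the variance, it was at 14.1, against 51.1 to 56.6 for them and -49.9 to -43.0 for the wild-type livers. The 20 most abundant genes took 16.3 to 17.3% of the counts in Ndrg3 LKO livers 1 to 4, but 26.6% in liver 5 and 26.2 to 28.0% in the wild-type livers. Its summed level of 8 hepatocyte markers, among them *Alb*, was 153761 CPM, against 36538 to 43885 CPM in the other Ndrg3 LKO livers and 127909 to 172169.7 CPM in wild-type. *Alb* alone gave 107850 CPM of this sum. *Hnf4a* in liver 5, at 362 CPM, lay between the other Ndrg3 LKO livers (181 to 227 CPM) and wild-type (589 to 793 CPM). *Cps1* in liver 5, at 4425 CPM, was within the range of both. Without Ndrg3 LKO liver 5, edgeR called 15 of the proteasome genes higher (background of all genes 28.4%) and 3 lower (background 27.2%), the same numbers as with it. Values without this liver are given beside some of the genes.

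Sequences upstream of 4 genes are shown because they cover the 2 largest rises among the proteasome genes and the 1 pair of exchangeable catalytic subunits whose ratio differed between the groups. They are the 250 bases before the transcript start of *Psmd9*, *Psmd8* and *Psmb5*, and a stretch of 30 bases at the only motif found upstream of *Psmb8*, from RefSeq's mouse promoters of GRCm38.p6, each with 1 exact match in NCBIM37 (mm9) that gives the position. Capitals mark matches to 5 motifs searched on both strands, the antioxidant response element TGACNNNGC, the CCAAT box, the interferon gamma activated site TTCNNNGAA, the interferon-stimulated response element core (GAAA and GAAA parted by any NN) and the E-box CACGTG.
Psmd9, chr5:123677949-123678198, plus strand: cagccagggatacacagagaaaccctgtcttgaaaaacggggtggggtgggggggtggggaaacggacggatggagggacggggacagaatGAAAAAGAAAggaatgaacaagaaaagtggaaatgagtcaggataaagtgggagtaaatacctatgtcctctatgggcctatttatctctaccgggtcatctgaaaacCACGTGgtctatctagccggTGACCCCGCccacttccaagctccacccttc
Psmd8, chr7:29965693-29965942, minus strand: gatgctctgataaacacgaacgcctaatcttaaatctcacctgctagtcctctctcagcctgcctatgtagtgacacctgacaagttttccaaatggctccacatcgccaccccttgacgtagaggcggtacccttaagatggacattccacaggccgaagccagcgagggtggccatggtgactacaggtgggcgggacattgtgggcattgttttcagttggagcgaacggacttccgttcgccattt
Psmb5, chr14:55236833-55237082, minus strand: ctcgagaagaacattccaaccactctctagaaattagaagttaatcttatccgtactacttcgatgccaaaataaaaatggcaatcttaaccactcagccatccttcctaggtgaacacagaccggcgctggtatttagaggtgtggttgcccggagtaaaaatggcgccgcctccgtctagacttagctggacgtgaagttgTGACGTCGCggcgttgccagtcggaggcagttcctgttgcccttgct
Psmb8, chr17:34335032-34335061, plus strand: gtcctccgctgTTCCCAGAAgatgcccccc

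The *Psmd9* stretch holds an interferon-stimulated response element core 159 bases, an E-box 51 bases and an antioxidant response element 31 bases before the start, counted to the first base of each match. *Psmb5* has an antioxidant response element 47 bases before its start, *Psmb8* an interferon gamma activated site 97 bases before its start, and no match to the 5 motifs was found in the *Psmd8* stretch. The *Psmb8* stretch and the last bases of the *Psmb5* stretch lie inside the GENCODE models of these genes, and the *Psmd9* and *Psmd8* stretches end at theirs. These letters are common: over the 44 RefSeq windows of 41 proteasome genes, each of 250 bases before and 50 bases after the start, 13.6% held the antioxidant response element, against 12.4% of all 32851 mouse windows. The interferon-stimulated core stood in 11.4% of the proteasome windows, those of *Psmb3*, *Psmd4*, *Psmd9*, *Psme1* and *Psmg4*, against 3.44% of all windows. The CCAAT box was in 31.8% against 37.4%, the interferon gamma activated site in 6.82% against 8.3%, and the E-box in 9.09% against 7.15%. Windows were not held for 8 of the genes, and those of *Psmb9* and *Tap1*, which lie head to head, share 275 bases.

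The 49 genes were spread over 16 chromosomes of NCBIM37, with 8 on chromosome 11, and 48 were located in its GENCODE annotation. *Psmb9* and *Psmb8* lay near each other on chromosome 17, with starts 9969 bp apart. On chromosome 14, *Psme2* lay 5912 bp beyond *Psme1*, and *Psmb11* lay 7296 bp beyond *Psmb5*. Another annotated gene overlapped 16 of them on the opposite strand, as *Tap1* did *Psmb9* and *Gm20496* did *Psmb8*. The strand setting of the counting is not given in the sources used here, so reads of these genes and of their partners cannot be told apart. Some genes were also overlapped on the same strand, as *Psmd1* was by *Armc9*, which no strand setting separates.

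Of the 49 genes, 47 reached at least 1 CPM in at least 5 livers and were tested. *Psmb11*, the catalytic subunit of the thymus, had 0 counts in every liver. At these depths this allows up to 0.0985 to 0.144 CPM per library, scaled by library size without TMM normalization and by counting error only. *Psma8*, the alpha subunit of the testis, was at 0.33 to 2.14 CPM. Together the 49 genes took 0.346 to 0.456% of the counts of a wild-type library and 0.577 to 0.855% of an Ndrg3 LKO library. After TMM normalization their sum was 4771 ± 709 CPM (SD, n = 5) in wild-type and 6192 ± 671 CPM (SD, n = 5) in Ndrg3 LKO livers. The lowest Ndrg3 LKO sum, 5429 CPM in liver 2, was below the highest wild-type sum, 5495 CPM in liver 3, so the sums overlapped.

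Whether the proteasome genes differed between the genotypes was read from edgeR's quasi-likelihood test over all 11208 genes tested, with Benjamini-Hochberg adjustment at 0.05. In Ndrg3 LKO livers, 15 of the 47 tested proteasome genes were higher (31.9%, against 25.6% of all genes tested) and 3 were lower (6.38%, against 23.0%). The other 29 did not pass. In 10 genes every Ndrg3 LKO liver was above every wild-type liver (21.3%, against 15.6% of all genes), and in 2 every one was below (4.26%, against 15.9%). The share called higher was thus near that of all genes, and the share called lower was smaller. With 1 liver left out, the share called higher was below that of all genes without wild-type liver 1 (21.3% against 22.4%), wild-type liver 4 (22.9% against 23.5%) or Ndrg3 LKO liver 1 (20.8% against 22.1%). The median log2 fold change was 0.27, against 0.03 for all genes, and 39 of 47 values were above 0 (83.0%, against 51.8% of all genes). Within a group the genes moved together, which makes these counts a description: wild-type liver 4 was the lowest wild-type liver for 37 of the 47 genes and wild-type liver 3 the highest for 30, and among Ndrg3 LKO livers liver 2 was the lowest for 29 and liver 1 the highest for 25. The lowest liver of each group also had the largest TMM factor of its group, 0.917 in wild-type liver 4 and 1.36 in Ndrg3 LKO liver 2, and the part of that factor in these values was not tested. P-values set the difference between the groups against the spread between livers within a group. In whole liver, a lower number of cells of a type and less RNA per cell cannot be told apart.

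**Figure D1:**
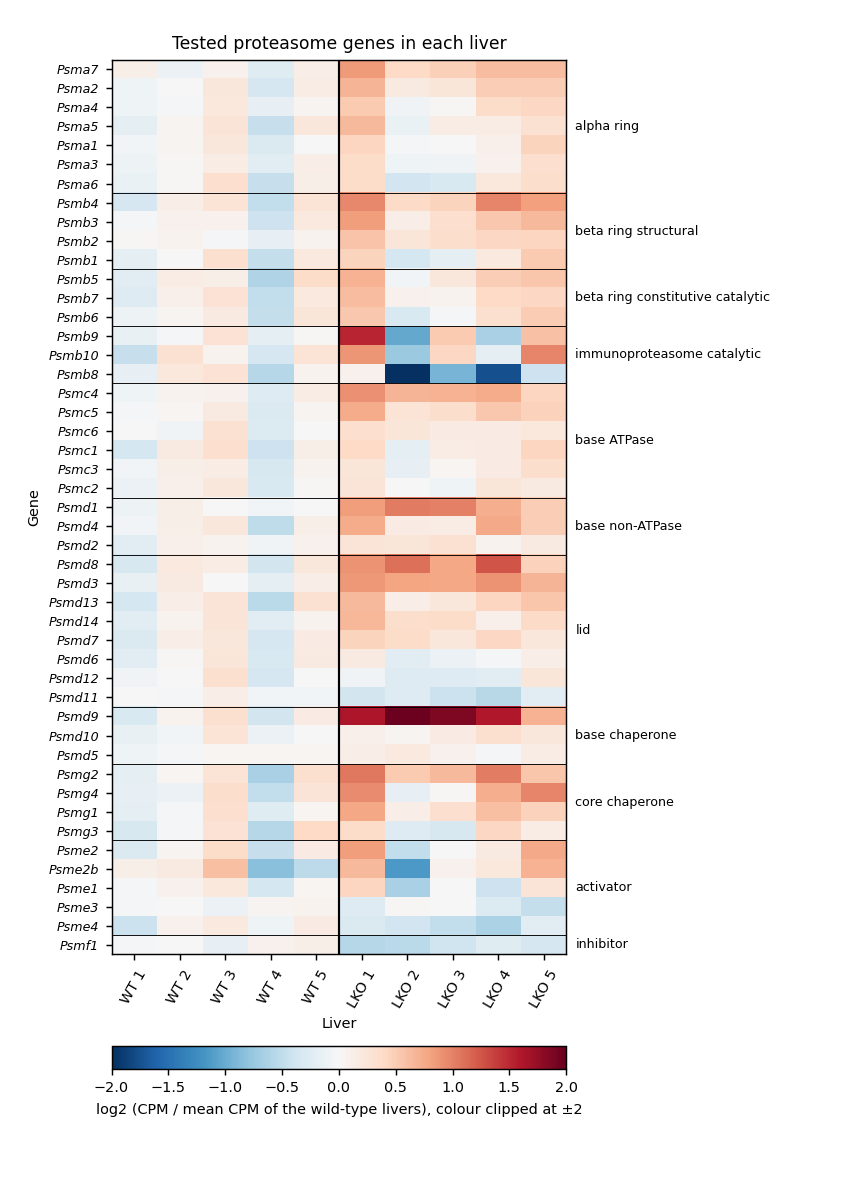
Each row is 1 of the 47 tested proteasome genes, grouped by role, each column is 1 liver (WT, wild-type), and the colour gives the log2 ratio of its TMM-normalized CPM to the mean of the 5 wild-type livers. *Psmd9*, *Psmd1*, *Psmd3* and *Psmd8* are red in every Ndrg3 LKO liver, wild-type liver 4 is blue for most genes, and *Psmb8* is deepest blue in Ndrg3 LKO livers 2 and 4.

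The size of these differences depended on the scaling of the libraries. With scaling by library size alone, 41 of the 47 genes were higher and 0 lower by edgeR's quasi-likelihood test, but the median of all 11208 genes then also moved, from 0.03 to 0.56, and 51.9% of all genes were called higher. Relative to the median of all genes, the median of the proteasome genes was 0.24 higher with TMM and 0.22 higher with library-size scaling. Directions below are therefore given on the TMM scale, and the 3 genes called lower had log2 fold changes above 0 with library-size scaling.

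**Figure D2:**
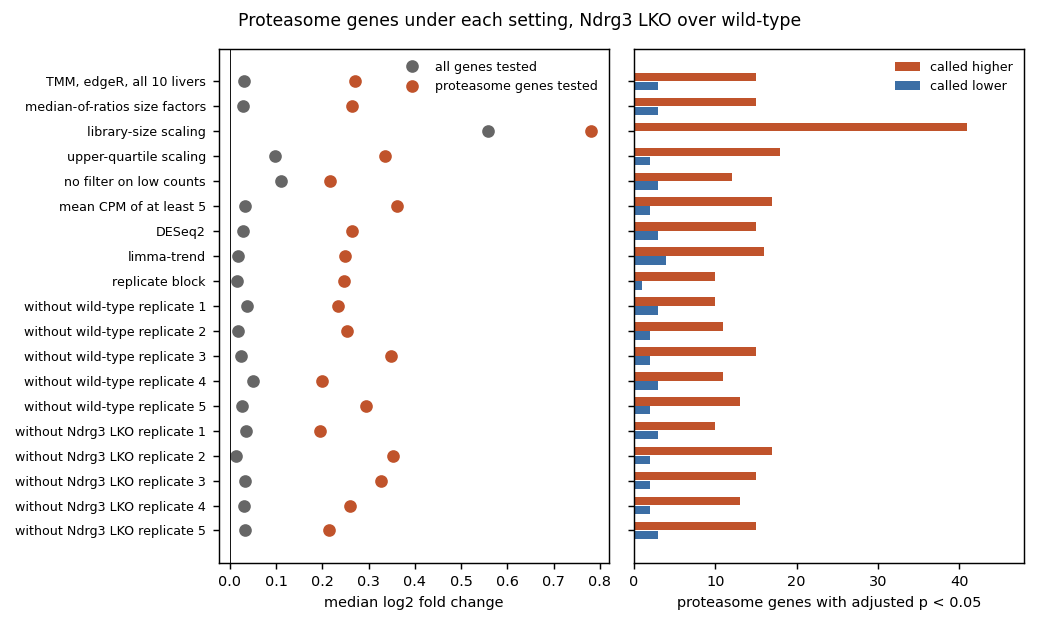
Left, the median log2 fold change (Ndrg3 LKO over wild-type) of all genes tested and of the proteasome genes tested under each setting, and right, the number of proteasome genes called higher or lower at an adjusted p below 0.05. Library-size scaling moves both medians, to 0.56 and 0.78, and raises the number called higher to 41.

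Of all genes tested, 25.6% were called higher and 23.0% lower, and the counts by role and by list below stand beside these shares. Among the alpha ring genes, whose products form the gate of the core, 2 of 7 were higher, *Psma7* and *Psma2*, and the median log2 fold change was 0.25. *Psma7*, on chromosome 2 (179771078 to 179777138), showed the largest value. It was at 137, 116, 133, 106 and 138 CPM in wild-type livers 1 to 5 and at 228, 166, 175, 193 and 194 CPM in Ndrg3 LKO livers 1 to 5. Every Ndrg3 LKO liver was above every wild-type liver, and *Psma7* rose 1.52-fold (log2 fold change 0.60 ± 0.13 (SE), adjusted p = 0.00313, edgeR quasi-likelihood). *Psma6* had the smallest value of the ring, with 137, 151, 188, 108 and 162 CPM in wild-type and 192, 114, 120.2, 172 and 191 CPM in Ndrg3 LKO livers. Its groups overlapped, with a log2 fold change of 0.08 ± 0.20 (adjusted p = 0.757, edgeR quasi-likelihood), which was -0.01 without Ndrg3 LKO liver 5. *Psma1*, *Psma3*, *Psma4* and *Psma5* lay between, at 0.14 to 0.27, and did not pass.

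In the beta ring, the subunits without a catalytic site include 3 of 4 genes that were higher, *Psmb4*, *Psmb3* and *Psmb2*, with a median log2 fold change of 0.46. *Psmb4*, on chromosome 3 (94688015 to 94690883), was at 174, 240.2, 266, 156 and 265 CPM in wild-type and at 427, 286, 301, 431 and 390.2 CPM in Ndrg3 LKO livers. The groups did not overlap, and *Psmb4* rose 1.67-fold (log2 fold change 0.74 ± 0.20, adjusted p = 0.00908, edgeR quasi-likelihood). *Psmb1* was at 168, 192, 237, 137 and 219 CPM in wild-type and at 258, 149, 167, 219 and 273 CPM in Ndrg3 LKO livers. Livers of both groups were mixed throughout the range of *Psmb1*, whose log2 fold change was 0.16 ± 0.21 (adjusted p = 0.538, edgeR quasi-likelihood) and 0.05 without Ndrg3 LKO liver 5.

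The catalytic subunits, constitutive and immune, are the 6 genes in which the core can change its activity, and none of them passed the test. *Psmb5* (chromosome 14, 55232644 to 55236851) encodes the chymotrypsin-like subunit beta5. It was at 72.2, 92.9, 91.5, 55.4 and 109 CPM in wild-type and at 136, 81.0, 98.4, 119 and 123 CPM in Ndrg3 LKO livers. Its 3 highest values were Ndrg3 LKO livers, but livers 2 and 3 were within the wild-type range, and the log2 fold change was 0.40 ± 0.20 (adjusted p = 0.104, edgeR quasi-likelihood). *Psmb6*, the caspase-like subunit beta1, was at 199.8, 222, 243, 154 and 252 CPM in wild-type and at 312, 174, 209, 269 and 306 CPM in Ndrg3 LKO livers. *Psmb7*, the trypsin-like subunit beta2, was at 191, 244, 279, 162 and 262 CPM in wild-type and at 349, 242, 239, 301 and 305 CPM in Ndrg3 LKO livers. Both overlapped between the groups, with log2 fold changes of 0.25 ± 0.20 and 0.33 ± 0.18 (adjusted p = 0.319 and 0.143, edgeR quasi-likelihood), and 0.16 and 0.30 without Ndrg3 LKO liver 5.

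*Psmb8* (chromosome 17, 34334666 to 34338399), which encodes beta5i, had the lowest log2 fold change of all 47 genes. It was at 39.2, 51.2, 54.1, 29.8 and 46.4 CPM in wild-type livers and at 47.0, 7.10, 23.2, 13.1 and 33.0 CPM in Ndrg3 LKO livers. Ndrg3 LKO livers 2, 3 and 4 were below all wild-type livers, whereas livers 1 and 5 were within their range. The log2 fold change of *Psmb8* was -0.84 ± 0.40, which did not pass (adjusted p = 0.103, edgeR quasi-likelihood). Without Ndrg3 LKO liver 1 it was -1.21 and passed (adjusted p = 0.0245, edgeR quasi-likelihood), as it did with limma at -1.10 (adjusted p = 0.0478), and without liver 5 it was -0.98 and did not (adjusted p = 0.0694, edgeR quasi-likelihood).

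*Psmb9* (chromosome 17, 34318932 to 34324697), beta1i, was at 8.76, 9.57, 11.9, 8.45 and 9.82 CPM in wild-type and at 27.8, 4.75, 13.9, 6.18 and 14.5 CPM in Ndrg3 LKO livers. *Psmb10* (chromosome 8, 108459628 to 108462292), beta2i, was at 35.9, 60.9, 52.0, 39.3 and 59.7 CPM in wild-type and at 91.0, 29.6, 66.1, 44.0 and 97.7 CPM in Ndrg3 LKO livers. In both genes Ndrg3 LKO livers 1, 3 and 5 were above the wild-type livers and liver 2 was below them. *Psmb9* in liver 4 was also below them and *Psmb10* in liver 4 was within their range. The log2 fold changes were 0.47 ± 0.39 for *Psmb9* and 0.41 ± 0.30 for *Psmb10* (adjusted p = 0.341 and 0.277, edgeR quasi-likelihood). That of *Psmb9* was 0.02 without Ndrg3 LKO liver 1, and that of *Psmb10* was 0.26 without liver 1 and 0.21 without liver 5. The Ndrg3 LKO livers were thus more spread than the wild-type livers for all 3 immune subunits, with SDs of 15.9, 9.15 and 29.3 CPM against 9.79, 1.36 and 11.5 CPM for *Psmb8*, *Psmb9* and *Psmb10*.

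Exchange of catalytic subunits was compared as the log2 ratio of the counts of each immune subunit to its constitutive counterpart within a liver, which no scaling of libraries can move. For *Psmb8* over *Psmb5*, this ratio was -0.88, -0.86, -0.76, -0.89 and -1.23 in wild-type and -1.54, -3.51, -2.08, -3.18 and -1.90 in Ndrg3 LKO livers. The groups did not overlap. Wild-type livers averaged -0.92 ± 0.18 (SD, n = 5) and Ndrg3 LKO livers -2.44 ± 0.86 (SD, n = 5), a difference of -1.52 with a 95% interval of -2.53 to -0.67. The 2-sided exact permutation test over 252 splits of the livers gave p = 0.00794, the smallest it can give, and 0.0238 after Benjamini-Hochberg adjustment over the 3 pairs. Without Ndrg3 LKO liver 5 the difference was -1.65, and without liver 2 it was -1.25 (exact permutation p = 0.00794 for each, over 126 splits).

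For *Psmb9* over *Psmb6* the ratio was -4.51, -4.53, -4.35, -4.18 and -4.68 in wild-type and -3.49, -5.19, -3.90, -5.44 and -4.39 in Ndrg3 LKO livers. *Psmb10* over *Psmb7* was at -2.41, -2.0, -2.43, -2.04 and -2.13 in wild-type and at -1.94, -3.03, -1.85, -2.77 and -1.64 in Ndrg3 LKO livers. In both pairs the Ndrg3 LKO livers lay on both sides of the wild-type values, with livers 2 and 4 below them. The differences were -0.03 (95% interval -0.96 to 0.86, exact permutation p = 0.929) and -0.04 (95% interval -0.81 to 0.56, exact permutation p = 0.881), so changes of a size within these intervals could not be seen with these livers.

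Expressed per transcript length, *Psmb8* made up 18.5 to 24.0% of the sum of *Psmb8* and *Psmb5* in wild-type and 4.48 to 15.6% in Ndrg3 LKO livers. *Psmb10* made up 14.5 to 18.6% of its pair in wild-type and 10.04 to 22.6% in Ndrg3 LKO livers, and *Psmb9* 2.27 to 3.17% and 1.35 to 5.04%. These are shares of transcripts in whole liver, not of assembled cores.

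**Figure D3:**
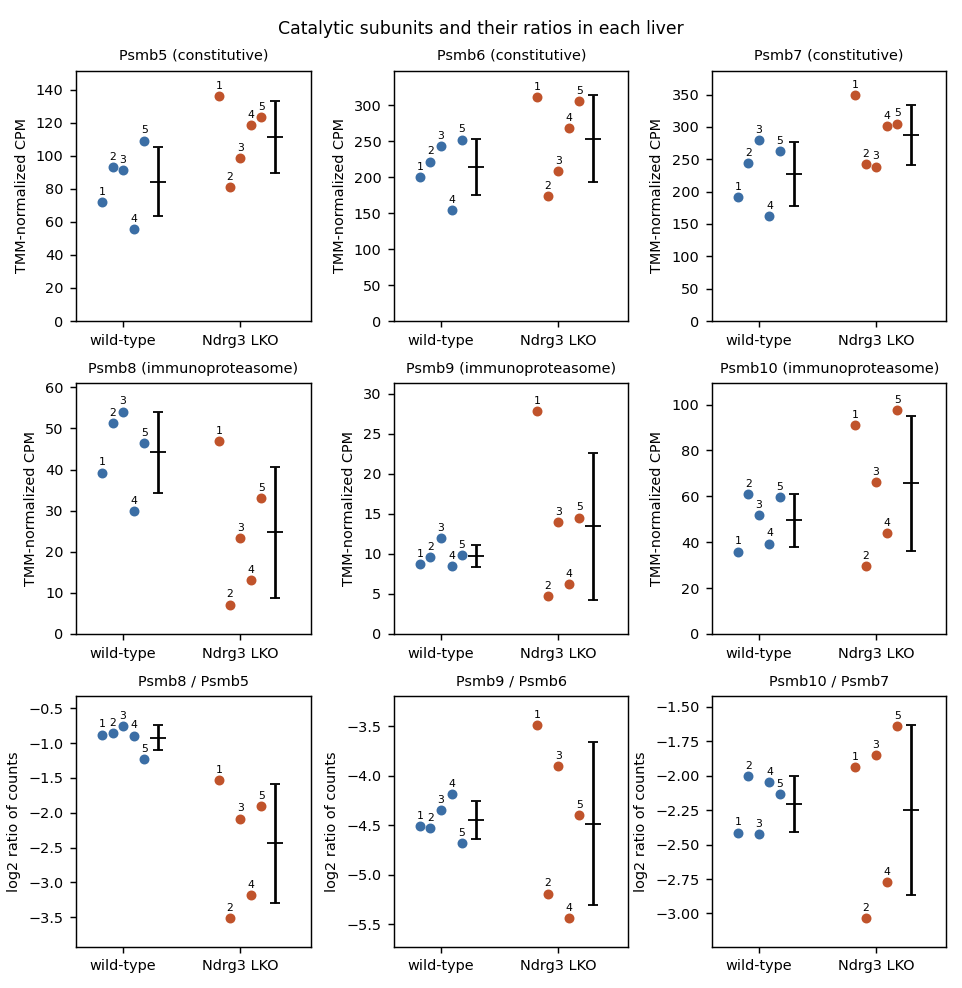
Top and middle rows, TMM-normalized CPM of the constitutive and immune catalytic subunits in each liver, and bottom row, the log2 ratio of the counts of each immune subunit to its constitutive counterpart. Points are livers with their replicate number and black bars are means ± SD (n = 5 per group). The *Psmb8* to *Psmb5* ratio is below -1.5 in all 5 Ndrg3 LKO livers and above -1.3 in all 5 wild-type livers, whereas the other ratios overlap.

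Markers of cells that carry immunoproteasomes also differed between the groups. All 3 markers of leukocytes in general, *Ptprc*, *Coro1a* and *Laptm5*, were higher in Ndrg3 LKO livers by edgeR's quasi-likelihood test, and their summed level was 9.49 to 22.2 CPM in wild-type and 53.5, 17.0, 44.2, 33.9 and 38.9 CPM in Ndrg3 LKO livers 1 to 5. All 7 macrophage markers tested were higher, with sums of 58.1 to 139.6 CPM in wild-type and 429, 138, 436, 213 and 167 CPM in Ndrg3 LKO livers. Ndrg3 LKO liver 2, the lowest in both sums, was also the lowest Ndrg3 LKO liver for *Psmb8*, *Psmb9* and *Psmb10*. These are among the 29 of 47 tested proteasome genes that were lowest in that liver. The other livers did not keep this order. Ndrg3 LKO liver 5, with the next lowest macrophage sum, had the highest *Psmb10*, at 97.7 CPM. Liver 3, with the highest macrophage sum, was below livers 1 and 5 for all 3 immune subunits. Markers of T, B and NK cells and of dendritic cells were not tested, as none reached 1 CPM in at least 5 livers. Their list sums were 1.25 to 2.28, 0.595 to 1.12, 0.919 to 2.95 and 1.01 to 1.67 CPM in wild-type and 1.28 to 5.26, 0.679 to 7.78, 1.48 to 4.14 and 0.921 to 2.93 CPM in Ndrg3 LKO livers. The B cell sum was highest in Ndrg3 LKO liver 5, at 7.78 CPM, against 0.679 to 2.27 CPM in the other Ndrg3 LKO livers. Ndrg3 LKO liver 1 had the highest T cell, NK cell and dendritic cell sums. Among the remaining lists, 4 of 5 endothelial and 2 of 4 stellate cell markers were higher, 0 of the 4 cholangiocyte markers was higher and 1 was lower, the 1 monocyte or neutrophil marker tested did not pass, and 5 of 8 hepatocyte markers were lower and 0 higher. The part of these cells in the values of the immune subunits was not tested.

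In the base of the regulatory particle, 2 of 6 ATPase genes were higher, *Psmc4* and *Psmc5*, with a median log2 fold change of 0.22. *Psmc4* (chromosome 7, 28826726 to 28835120) was at 108, 119.9, 122, 95.9 and 127 CPM in wild-type and at 216, 183, 185, 192 and 154 CPM in Ndrg3 LKO livers. Even the lowest Ndrg3 LKO liver, liver 5, was above the wild-type livers, and *Psmc4* rose 1.63-fold (log2 fold change 0.70 ± 0.13, adjusted p = 0.00119, edgeR quasi-likelihood). *Psmc2* had the smallest value of the ATPases, with 108, 125, 136, 94.1 and 119 CPM in wild-type and 139, 115, 109.6, 137 and 131 CPM in Ndrg3 LKO livers. Its groups overlapped (log2 fold change 0.12 ± 0.13, adjusted p = 0.466, edgeR quasi-likelihood).

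Among the other base subunits, *Psmd1*, a scaffold of the base, and *Psmd4*, a receptor for ubiquitin chains, were higher, and *Psmd2*, a scaffold to which carriers of substrates dock, did not pass. *Psmd1* (chromosome 1, 87960962 to 88059363) was at 100.5, 116, 108, 103 and 108 CPM in wild-type and at 192, 221, 215, 178 and 152 CPM in Ndrg3 LKO livers. Its wild-type livers differed little from each other, all Ndrg3 LKO livers were above them, and *Psmd1* rose 1.78-fold (log2 fold change 0.84 ± 0.13, adjusted p = 3.96e-04, edgeR quasi-likelihood). *Psmd2* was at 164, 203, 199, 179.7 and 201 CPM in wild-type and at 227, 225, 233, 199.9 and 214 CPM in Ndrg3 LKO livers. Only Ndrg3 LKO liver 4 was within the wild-type range of *Psmd2*, whose log2 fold change was 0.21 ± 0.12 (adjusted p = 0.151, edgeR quasi-likelihood).

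The lid removes ubiquitin chains through the deubiquitinase PSMD14. Of its 8 genes, 3 were higher and 1 was lower, against 25.6 and 23.0% of all genes tested. *Psmd8* (chromosome 7, 29959207 to 29965692), whose upstream stretch is printed above, was at 118, 169, 163, 114 and 173 CPM in wild-type and at 276, 315, 252, 353 and 204 CPM in Ndrg3 LKO livers. Ndrg3 LKO liver 5 was the lowest of its group but above every wild-type liver. *Psmd8* rose 1.90-fold (log2 fold change 0.92 ± 0.19, adjusted p = 0.00186, edgeR quasi-likelihood), and its log2 fold change was 1.01 without liver 5.

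*Psmd3*, a structural lid subunit, rose 1.74-fold, from 87.4 to 112 CPM in wild-type to 158 to 184 CPM in Ndrg3 LKO livers (log2 fold change 0.80 ± 0.12, adjusted p = 2.79e-04, edgeR quasi-likelihood). *Psmd14* passed with a log2 fold change of 0.39 ± 0.14 (adjusted p = 0.0368, edgeR quasi-likelihood), and its groups overlapped. Its call was lost in 8 of the 18 alternatives, among them leaving out wild-type liver 1, 2, 4 or 5 or Ndrg3 LKO liver 1 or 3 (highest adjusted p with 1 liver left out = 0.105, edgeR quasi-likelihood).

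*Psmd11* (chromosome 11, 80242117 to 80286750), a scaffold subunit of the lid, went the other way. It was at 73.4, 72.4, 81.2, 71.4 and 71.1 CPM in wild-type and at 57.2, 61.7, 54.9, 50.2 and 64.2 CPM in Ndrg3 LKO livers. All Ndrg3 LKO livers were below all wild-type livers, and *Psmd11* fell by 0.36 on the log2 scale with an SE of 0.11 (adjusted p = 0.0151, edgeR quasi-likelihood); with library-size scaling its log2 fold change was 0.16. *Psmd6*, *Psmd7*, *Psmd12* and *Psmd13* did not pass, with log2 fold changes of -0.10 to 0.41.

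**Figure D4:**
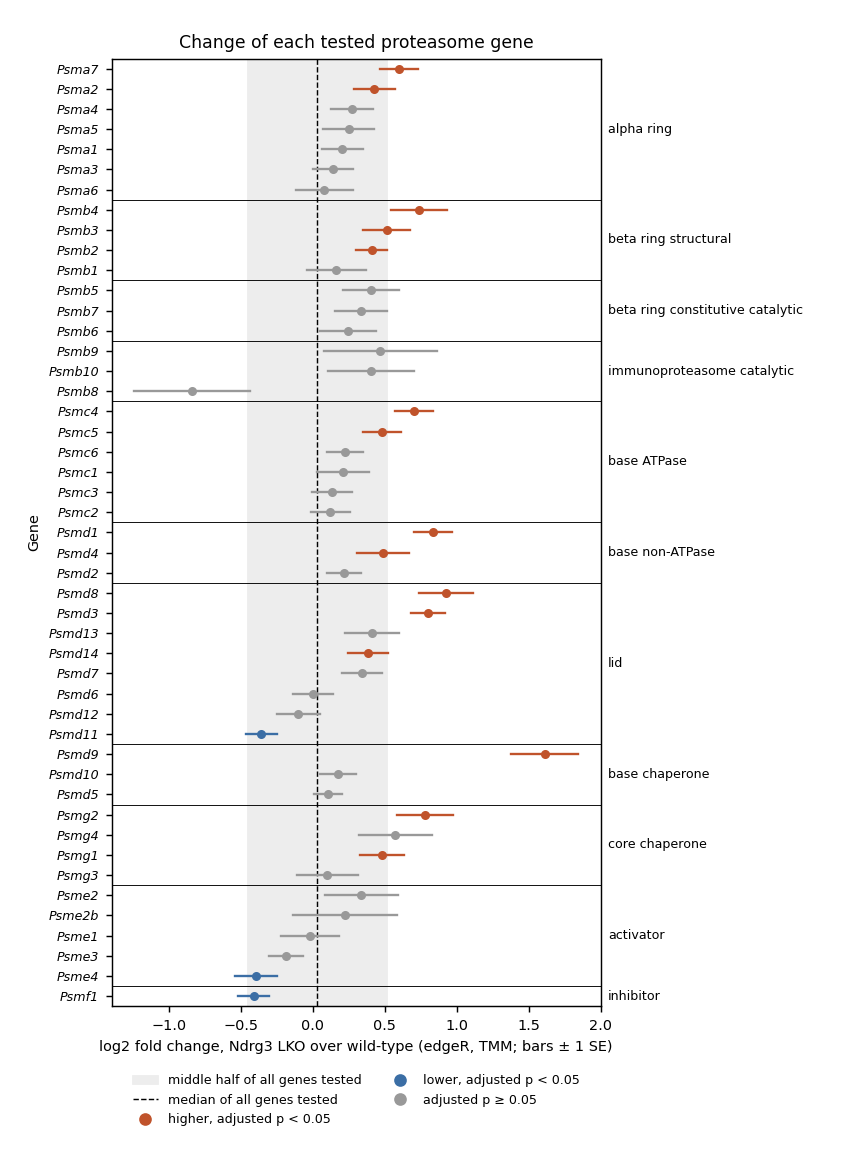
Points are log2 fold changes (Ndrg3 LKO over wild-type, TMM) of the 47 tested proteasome genes by role and bars are ± 1 SE, with the middle 50 percent of all genes tested shaded and their median dashed. *Psmd9* lies farthest to the right at 1.61, *Psmb8* farthest to the left at -0.84 with a wide bar, and *Psmd11*, *Psme4* and *Psmf1* are the 3 genes called lower.

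Of the 3 chaperones that assemble the base, only *Psmd9* was called, and it had the largest change of all proteasome genes. *Psmd9* (chromosome 5, 123678199 to 123700140) was at 91.6, 119, 141, 87.5 and 127 CPM in wild-type and at 348, 439, 413, 344 and 183 CPM in Ndrg3 LKO livers. Ndrg3 LKO livers 1 to 4 were far above the wild-type livers and liver 5 was between. *Psmd9* rose 3.05-fold (log2 fold change 1.61 ± 0.23, adjusted p = 2.56e-04, edgeR quasi-likelihood), with a log2 fold change of 1.76 without liver 5. GENCODE places *Gm17627* on the opposite strand of *Psmd9*, and reads from exons that the 2 genes share, if any, could belong to either.

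*Psmd5*, another chaperone of the base, was at 28.2, 29.5, 30.7, 30.7 and 30.9 CPM in wild-type and at 33.1, 34.3, 31.7, 29.2 and 33.2 CPM in Ndrg3 LKO livers. Ndrg3 LKO liver 4 was within the wild-type range and the other 4 were above it, with a log2 fold change of 0.11 ± 0.10 (adjusted p = 0.379, edgeR quasi-likelihood). *Psmd10*, which encodes gankyrin, had a log2 fold change of 0.17 and did not pass.

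The chaperones of the core work in pairs, PSMG1 with PSMG2 and PSMG3 with PSMG4, to build the alpha ring. *Psmg1* and *Psmg2* were higher, and *Psmg3* and *Psmg4* did not pass. *Psmg2* was at 12.9, 15.1, 17.8, 9.33 and 18.3 CPM in wild-type and at 30.4, 21.0, 23.0, 29.8 and 21.6 CPM in Ndrg3 LKO livers. Its groups did not overlap, and *Psmg2* rose 1.71-fold (log2 fold change 0.78 ± 0.19, adjusted p = 0.00607, edgeR quasi-likelihood). *Psmg3* was at 21.7, 26.4, 33.0, 18.2 and 35.7 CPM in wild-type and at 34.7, 22.5, 21.7, 36.1 and 29.8 CPM in Ndrg3 LKO livers. The livers of both groups covered the same range for *Psmg3* (log2 fold change 0.10 ± 0.21, adjusted p = 0.711, edgeR quasi-likelihood), and the difference between the pairs of chaperones was not tested.

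The activators cap the core in place of the 19S particle. PSME1 and PSME2 form PA28 alpha-beta, which is induced by interferon gamma, PSME3 forms the nuclear PA28 gamma, and PSME4 is PA200. *Psme1* was at 125, 136, 148, 101 and 132 CPM in wild-type and at 173, 82.3, 128, 96.8 and 153 CPM in Ndrg3 LKO livers. *Psme2* was at 97.2, 123, 154, 86.0 and 134 CPM in wild-type and at 211, 84.7, 119, 134 and 201 CPM in Ndrg3 LKO livers. Both were highest in Ndrg3 LKO livers 1 and 5. Liver 2 was below all wild-type livers for both, and liver 4 for *Psme1*. Their log2 fold changes of -0.02 ± 0.20 and 0.34 ± 0.25 did not pass (adjusted p = 0.943 and 0.287, edgeR quasi-likelihood), and that of *Psme1* was 0.48 with library-size scaling. Without Ndrg3 LKO liver 5 they were -0.11 and 0.20.

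*Psme2b*, a near copy of *Psme2* whose reads the counting could have split between them, was at 1.85, 1.95, 2.62, 0.965 and 1.19 CPM in wild-type and at 2.70, 0.775, 1.83, 1.99 and 2.78 CPM in Ndrg3 LKO livers. *Psme3* was at 58.0, 58.5, 54.5, 61.5 and 62.1 CPM in wild-type and at 49.2, 59.6, 58.8, 49.0 and 42.6 CPM in Ndrg3 LKO livers. Both overlapped between the groups and did not pass, with log2 fold changes of 0.22 and -0.18, and of 0.08 and -0.13 without Ndrg3 LKO liver 5. The log2 fold change of *Psme3* was 0.36 with library-size scaling.

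*Psme4* (chromosome 11, 30671726 to 30780361) was at 106, 152, 165, 136 and 160.2 CPM in wild-type and at 118, 109.9, 102, 92.9 and 124 CPM in Ndrg3 LKO livers. Wild-type liver 1 lay among the Ndrg3 LKO livers and the other 4 above them. *Psme4* fell by 0.39 on the log2 scale with an SE of 0.14 (adjusted p = 0.0396, edgeR quasi-likelihood), and its log2 fold change was 0.12 with library-size scaling. The call was lost in 11 of the 18 alternatives, among them leaving out wild-type liver 2, 3 or 5 or Ndrg3 LKO liver 1, 2, 3 or 4 (highest adjusted p with 1 liver left out = 0.0953, edgeR quasi-likelihood).

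*Psmf1* (chromosome 2, 151541548 to 151569922) encodes PI31, a protein described as an inhibitor of the core in vitro. It was at 32.3, 32.9, 29.6, 35.4 and 35.8 CPM in wild-type and at 22.3, 22.8, 25.1, 28.1 and 26.4 CPM in Ndrg3 LKO livers. The groups did not overlap, and *Psmf1* fell by 0.41 on the log2 scale with an SE of 0.11 (adjusted p = 0.00873, edgeR quasi-likelihood), with a log2 fold change of 0.11 under library-size scaling.

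Levels of different genes were compared per kilobase of the longest coding transcript of each gene. On this scale *Psmb6* was the highest proteasome gene in both groups, at 268 ± 49.3 CPM per kb (SD, n = 5) in wild-type and 318 ± 75.9 in Ndrg3 LKO livers. In wild-type livers *Psmb7*, *Psmb4*, *Psmb1* and *Psmb3* followed at 196 ± 42.5, 186 ± 43.8, 184 ± 38.6 and 154 ± 23.2 CPM per kb, and within these 4 genes neighbours differed by less than the larger of their SDs. *Psmb9*, at 7.24 ± 1.01, was the lowest of the tested genes with a length in wild-type livers, below *Psmd10* at 8.20 ± 1.01 and *Psmf1* at 8.72 ± 0.66. The 14 constitutive subunits of the core spanned 6.38-fold in wild-type and 6.23-fold in Ndrg3 LKO livers. The assembled core holds each of them in equal number, but these spans rest on the lengths used. The lowest, *Psma2* in wild-type and *Psma3* in Ndrg3 LKO livers, had lengths of 2668 and 2846 bp, against 798 bp for *Psmb6*. Without division by length, wild-type means ran from 76.1 CPM for *Psmb2* to 228 CPM for *Psmb7*. Which transcripts the livers expressed was not tested. The 17 subunits of the regulatory particle covered by the rule spanned 3.76-fold in wild-type and 9.15-fold in Ndrg3 LKO livers, with *Psmd11* the lowest in both. *Psmd8* was the highest in Ndrg3 LKO livers, at 185 ± 37.9 CPM per kb, while in wild-type livers *Psmd8* and *Psmc1* were level within their SDs, at 97.5 ± 19.1 and 97.1 ± 21.8. *Psmd9* moved from rank 29 to rank 11 and *Psmb8* from rank 36 to rank 43 of the 48 genes with a length.

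**Figure D5:**
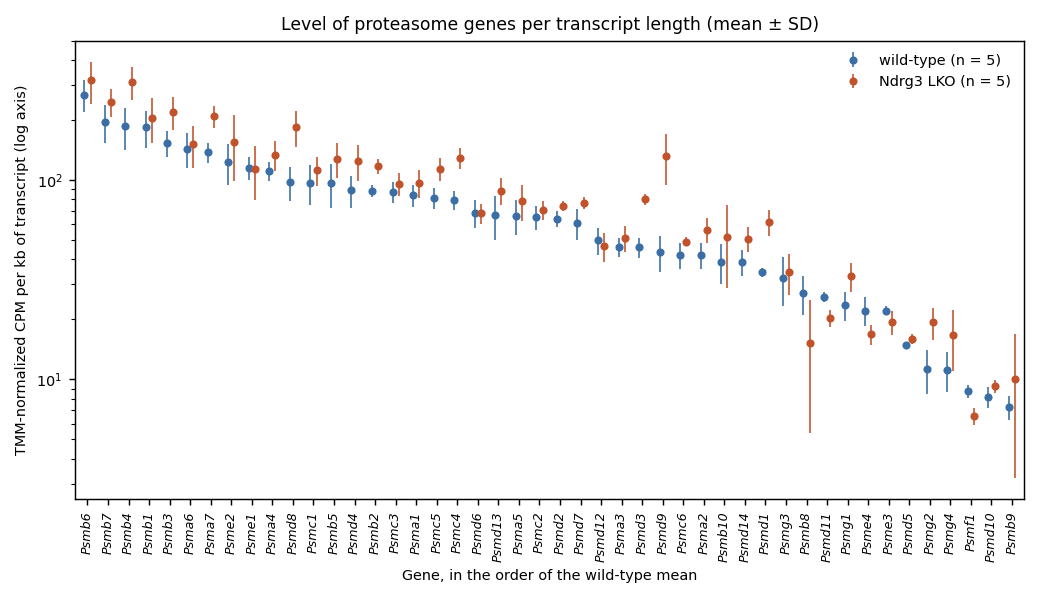
Mean TMM-normalized CPM per kb of the longest coding transcript (log axis, bars ± SD, n = 5 per group) of the 46 tested proteasome genes with a length, in the order of the wild-type mean. Levels run from 268 CPM per kb for *Psmb6* to 7.24 for *Psmb9* in wild-type, and *Psmd9* stands out of the order in Ndrg3 LKO livers.

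Genes that work with the proteasome but do not carry a *Psm* symbol were followed as a list of 42 genes. By edgeR's quasi-likelihood test, 9 were higher and 7 lower, against 25.6 and 23.0% of all genes tested, and the median log2 fold change was 0.10. Of the 5 genes for bound subunits and deubiquitinases, 0 were higher and 1 was lower. *Shfm1*, the small lid subunit also called SEM1, had a log2 fold change of 0.54 ± 0.21 (adjusted p = 0.0521, edgeR quasi-likelihood), *Adrm1*, a ubiquitin receptor, of -0.30, and the deubiquitinases *Uchl5* and *Usp14* of -0.34 and 0.09. Without Ndrg3 LKO liver 5, *Adrm1* was at -0.41 and *Uchl5* at -0.63, and both passed (adjusted p = 0.0174 and 0.00896, edgeR quasi-likelihood).

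Among 4 genes of assembly and import, *Akirin2*, which encodes a factor that brings proteasomes into the nucleus, rose 1.74-fold (log2 fold change 0.80 ± 0.16, adjusted p = 0.0018, edgeR quasi-likelihood) and its groups did not overlap. *Pomp*, the maturation factor of the core, had a log2 fold change of 0.35 ± 0.20 and did not pass (adjusted p = 0.17, edgeR quasi-likelihood). Of 7 genes of transcriptional control, 2 were higher and 1 was lower. *Nfe2l1*, which encodes the activator that restores proteasome gene expression when the proteasome is inhibited, was at 137, 176, 141, 123 and 151 CPM in wild-type and at 123, 174, 139, 124 and 100.3 CPM in Ndrg3 LKO livers. Its groups overlapped, with a log2 fold change of -0.15 ± 0.16 (adjusted p = 0.472, edgeR quasi-likelihood) and of 0.42 with library-size scaling. *Ngly1*, whose enzyme processes the *Nfe2l1* product, fell by 1.04 on the log2 scale (adjusted p = 2.34e-04, edgeR quasi-likelihood), a gene singled out after its values were seen.

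*Nfe2l2*, which encodes the oxidative stress activator NRF2, was at 45.3, 38.1, 43.5, 44.0 and 37.3 CPM in wild-type and at 215, 255, 207, 217 and 69.3 CPM in Ndrg3 LKO livers. Like *Psmd9*, it was high in Ndrg3 LKO livers 1 to 4 and nearer the wild-type livers in liver 5. That liver also lay nearer to them on the first principal component of all genes tested, at 14.1, against 51.1 to 56.6 for the other Ndrg3 LKO livers. A part of *Nfe2l2* in the level of *Psmd9* was not tested. *Nfe2l2* rose 4.62-fold (log2 fold change 2.21 ± 0.28, adjusted p = 1.11e-04, edgeR quasi-likelihood). The antioxidant response element letters, to which NRF2 is known to bind, stood in the windows of 6 proteasome genes, *Psmb5*, *Psmb6*, *Psmc6*, *Psmd12*, *Psmd9* and *Psme4*. Of these 6 genes, 1 was called higher and 1 lower, against 25.6 and 23.0% of all genes tested.

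Of 11 genes for shuttle factors and extraction from complexes, 3 were higher and 2 lower, with *Zfand2b* the largest change at -0.65 ± 0.16 (adjusted p = 0.00511, edgeR quasi-likelihood). Of 6 genes for ubiquitin and its activating enzymes, 1 was higher and 2 were lower. Of these, *Rps27a*, which encodes ubiquitin fused to a ribosomal protein and was singled out after its values were seen, rose 1.87-fold (adjusted p = 0.0057, edgeR quasi-likelihood).

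Antigen processing genes that are known to be induced with the immunoproteasome numbered 9, of which 2 were higher and 1 was lower. *Tap1*, the peptide transporter gene next to *Psmb9*, was at 10.9, 12.9, 12.1, 11.8 and 8.57 CPM in wild-type and at 26.8, 11.6, 24.5, 16.4 and 13.5 CPM in Ndrg3 LKO livers. All but Ndrg3 LKO liver 2 were above the wild-type livers. *Tap1* rose 1.65-fold (log2 fold change 0.72 ± 0.23, adjusted p = 0.0228, edgeR quasi-likelihood), while the regulators *Irf1* and *Nlrc5* did not pass, at 0.26 and -0.13, with *Nlrc5* at 0.43 under library-size scaling.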

How the data were processed

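RNA of the 10 livers was sequenced by the authors with a stranded mRNA kit as paired reads of 100 bases, mapped to mm9 and counted per gene with STAR. The submitters' processing notes name STAR 2.7.3a, Trim Galore 0.6.4, bcl2fastq and Cufflinks 2.2.1, and the methods name an older STAR; the annotation is not given in the sources used here. The deposited values are raw read counts, whole numbers with differing totals, although they are called CPM. Depth per liver was 20872262 to 30450057 counts. No library was a copy of another of its group (chi-square per degree of freedom 27.5 to 479 over 20 pairs).

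Genes were tested where 5 or more livers reached 1 CPM (4 or more with 1 liver left out), with edgeR 4.0.16 in R 4.3.3 (TMM, quasi-likelihood, Benjamini-Hochberg, threshold 0.05, no covariate). Standard errors are the log2 fold change over the square root of F. Ratios used a pseudocount of 0.5 counts and the exact permutation test, whose inversion gave the 95% intervals. Positions are from GENCODE M1. Alternatives were DESeq2 1.42.0, limma 3.58.1, other scalings and filters, a replicate block and leaving out each liver. Scripts were tested on simulated data. The genes and lists were chosen with earlier results of these data known. In each role the genes with the highest and lowest log2 fold change, all catalytic subunits, activators and the inhibitor, and in each companion list set genes and the largest change were named. Of the listed symbols, *Sem1*, *Ecm29*, *Ufd1*, *Trac* and *Adgre1* were not among the symbols counted. *Psmd3* and *Psmd14* were named after their values were seen. The gene with the largest change in 1 companion list is not reported here.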

Additional observations from a re-analysis of the deposited data

Results flagged for a closer look

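In 82 groups of 5 livers examined, 4 held 1 liver whose gap to its nearest neighbour was more than 0.71 of the range of the group, and chance alone gives this in about 1 in 20 groups. *Psmd11* was at 81.2 CPM in wild-type liver 3, against 73.4 CPM in the next liver and a median of 72.4 CPM, and this liver was the wild-type liver farthest from the Ndrg3 LKO livers. *Adrm1* was at 83.7 CPM in wild-type liver 4, below 97.3 CPM in the next liver. *Nfe2l2* was at 69.3 CPM in Ndrg3 LKO liver 5, against 207 CPM in the next liver and a median of 215 CPM. The log2 ratio of *Psmb8* to *Psmb5* was -1.23 in wild-type liver 5, against -0.89 in the next liver, and was the wild-type value nearest to the Ndrg3 LKO livers.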

How the results depend on the processing

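Of the 15 proteasome genes called higher, 10 were called in all 18 alternatives (*Psma7*, *Psmc4*, *Psmc5*, *Psmd9*, *Psmd1*, *Psmb2*, *Psmb4*, *Psmg2*, *Psmd3* and *Psmd8*). Library-size scaling gave 5821 genes higher and 1010 lower among all genes, 41 and 0 among the proteasome genes, and 27 and 2 among the companion genes. Leaving out 1 liver gave 10 to 17 proteasome genes higher (10 without wild-type liver 1, 21.3% against 22.4% of all genes, and without Ndrg3 LKO liver 1, 20.8% against 22.1%) and 2 to 3 lower, and 4 to 10 companion genes higher (4 without wild-type liver 5) and 5 to 10 lower. The median of the proteasome genes above that of all genes was 0.24, 0.11 with no filter on low counts, and 0.15 to 0.34 with 1 liver left out, lowest without wild-type liver 4. The *Psmb8* to *Psmb5* difference was -1.74 to -1.25 with 1 liver left out, that of *Psmb9* to *Psmb6* -0.28 to 0.20, turning to 0.03, 0.14 and 0.20 without wild-type liver 4 and Ndrg3 LKO livers 2 and 4, and that of *Psmb10* to *Psmb7* -0.20 to 0.15, turning to 0.0064, 0.15 and 0.087 without wild-type liver 2 and Ndrg3 LKO livers 2 and 4.

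Both groups carry replicate numbers 1 to 5, and whether these stand for a pairing is not given in the sources used here. Over all genes tested, deviations from the group mean correlated at -0.36, -0.27, -0.31, -0.18 and 0.04 between livers with the same number. Livers with different numbers were not compared in this way, so these correlations cannot tell whether the livers were paired. With the replicate number as a block, 10 proteasome genes were higher (21.3%, against 19.8% of all genes) and 1 lower (19.6% of all genes), 5 companion genes were higher and 7 lower, and the *Psmb8* to *Psmb5* difference of -1.52 had an exact sign-flip permutation p = 0.0625, the smallest that 5 pairs allow. *Psma2*, *Psmd4*, *Psmb3*, *Psmg1* and *Psmd14* were not called higher with the block, nor *Psmd11* and *Psme4* lower. Leaving out 1 liver also ended the call of *Psma2* (wild-type liver 1, 2 or 4, Ndrg3 LKO liver 1 or 4), *Psmd4* (wild-type liver 1, 2, 4 or 5, Ndrg3 LKO liver 1 or 4), *Psmb3* (wild-type or Ndrg3 LKO liver 1) and *Psmg1* (wild-type liver 1, 2 or 4, Ndrg3 LKO liver 1).

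Log2 fold changes turned sign with library-size scaling for *Psmd11* (0.16), *Psme1* (0.48), *Psme3* (0.36), *Psme4* (0.12), *Psmf1* (0.11), *Adrm1* (0.20), *Nfe2l1* (0.42), *Nlrc5* (0.43) and *Uchl5* (0.12). *Psme1* also turned with upper-quartile scaling (0.044), with a mean CPM of at least 5 (0.039), and over the livers left out ranged from -0.16 to 0.10, above 0 without wild-type liver 3 or Ndrg3 LKO livers 2 or 4. *Psma6* ranged from -0.034 to 0.17, below 0 without wild-type liver 4 or Ndrg3 LKO liver 5, *Psmg3* turned to -0.027 without wild-type liver 4, and *Nlrc5* ranged from -0.32 to 0.028, above 0 without wild-type liver 1 or 4 or Ndrg3 LKO liver 5. The cause was not tested. With 5 livers a group, the ratios of the other pairs are known only to within their intervals.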
